A study of Homo sapiens with 26 samples.

Results

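The response of HCT116 cells labelled p53 knockout (KO) to 20 nM leptomycin B was read on 6 of the series' 26 one-colour Illumina expression arrays, chosen by their titles. HCT116 is an established line from a human colon carcinoma, and the isogenic knockout line was made from it to lack p53, a transcription factor that induces cell cycle arrest and cell death genes after stress. The 6 arrays were 3 of KO-labelled cells exposed to 20 nM leptomycin B for 16 h (replicates 1 to 3) and 3 of untreated KO-labelled cells of the same slide series (replicates 4 to 6). Set beside them were WT-labelled HCT116 cells at 20 nM (3 arrays) with their untreated replicates 4 to 6, KO-labelled cells at 2 nM (3 arrays) with untreated replicates 7 to 10, and WT-labelled cells at 2 nM (3 arrays) with untreated replicates 7 to 10. All groups were grown in McCoy medium with bovine serum. The 2 nM arrays lay on another slide series than the 20 nM arrays, so dose and slide series cannot be told apart.

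Leptomycin B binds covalently to XPO1 (CRM1), the receptor that carries proteins with a leucine-rich export signal out of the nucleus together with the small GTPase Ran. Its cargoes include transcription factors and their inhibitors, cell cycle regulators and the adaptor that exports new large ribosomal subunits. When XPO1 is blocked, such proteins stay in the nucleus, and the arrays read the RNA levels of cells in that state.

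Values are the deposited linear intensities, in arbitrary units with a median of 10.2 on every array. For the tests, every value under 10 was raised to 10 before log2, which understates the changes of dim genes. Changes are log2 differences ± SE, 20 nM minus untreated (n = 3 and 3), from limma, and a gene was called at a Benjamini-Hochberg adjusted p under 0.05 over 12962 genes tested. The labels do not state whether replicates came from separate cultures. The p-values thus measure only the spread among these samples, which may be technical, and the number of arrays limits the precision. RNA came from whole cultures, so fewer cells of a kind and less RNA per cell cannot be told apart.

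The untreated arrays were not alike. The 3 arrays at 20 nM correlated with each other at 0.998 over all genes tested, and untreated replicates 5 and 6, which shared a slide, at 0.999. Untreated replicate 4 correlated with replicates 5 and 6 at 0.973 and 0.974, and lay on another slide, with the 3 untreated WT-labelled arrays. Deviations from the mean of all untreated arrays, of both labels and both slide series, were compared across genes, so label and slide series enter these values. Those of replicate 4 correlated at 0.505 with those of untreated WT-labelled replicate 4 and at 0.443 with those of WT-labelled replicate 10. With those of KO-labelled replicate 10 they correlated at 0.115. Deviations from each group's own mean correlated at 0.761 between replicate 4 of the KO and WT labels. No slide held both 20 nM and untreated KO-labelled arrays, so treatment and slide cannot be told apart in KO-labelled cells. A fit with slide as a random block, which does not remove this, called 3993 genes at 20 nM. Results are given against all 3 untreated arrays and, for many lists and genes, also against replicates 5 and 6 (without replicate 4) and against replicate 4 alone. A change called higher or lower in all 3 ways is said to hold with every choice of control.

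At 20 nM, 2378 genes (18.3% of those tested) were called higher and 2438 (18.8%) lower in KO-labelled cells, 37.2% in all. Against replicates 5 and 6 there were 2728 higher (21%) and 2829 lower (21.8%), and 4364 of the calls were shared. Against replicate 4 alone there were 1795 higher (13.8%) and 1993 lower (15.4%), and 2780 calls were shared. With every choice of control, 1197 genes (9.23%) were higher and 1258 (9.71%) lower. A further 153 genes were called in opposite directions against replicates 5 and 6 and against replicate 4, 77 of them lower against replicates 5 and 6 and 76 higher. The 20 nM and untreated values of 5437 genes (41.9%) did not overlap. A gene could pass the filter on low values through its 20 nM arrays alone. Counts of list members below are to be read against the shares over all genes given here.

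The deleted gene's own transcript was not analysed here and offers no check of the genotypes. CDKN1A, which encodes the p53-induced kinase inhibitor p21, read 1659, 1751 and 1764 at 20 nM, against 1291, 3463 and 3330.4 on untreated replicates 4 to 6. The untreated WT-labelled arrays of the same slide series read 5212, 17672 and 17963, each above all 6 KO-labelled ones. In the other slide series the labels ran the opposite way, with 4031, 4542, 4276 and 4672 on untreated KO-labelled arrays, against 615, 636, 665 and 1016 on untreated WT-labelled ones. Genotypes below are therefore those of the labels.

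Markers of the labelled tissue and of others were read on the same 6 arrays. Of 14 colon epithelial markers on the array, 6 read above 100 on all 6 arrays and 4 at or below 10, namely VIL1, CDX1, CEACAM5 and LGALS4. Of 12 fibroblast markers, 10 lay at or below 10 on all 6 arrays, as did all 6 endothelial markers and 5 of 10 blood cell markers. The blood markers summed to between 264 and 280 at 20 nM, against 124 to 146 untreated. HBA1, an alpha globin, read 176, 183 and 174 at 20 nM, against 77.6, 32.7 and 31.9 untreated, and rose by 2.04 ± 0.23 (adjusted p = 1.4e-06). The monocyte antigen gene CD14 read 25.5, 24.5 and 32.5 at 20 nM, against 1.40, 13.3 and 12.5 untreated, and rose by 1.20 ± 0.12. The pan-leukocyte gene PTPRC lay between 7.52 and 11.4, and the part of other cells in the results was not tested.

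XPO1 itself read 1253, 1326 and 1372 at 20 nM, against 1035, 1057 and 1063 untreated. All 3 treated values lay above the untreated ones, and the difference of 0.32 ± 0.15 did not pass the test (adjusted p = 0.112). ARRDC3, an arrestin family member that is among the genes used as readouts of XPO1 inhibition, read 131, 113 and 101 at 20 nM, against 16.7, 53.6 and 54.5 untreated, and rose by 1.65 ± 0.36 (adjusted p = 0.00129). Its rise was 1.08 against replicates 5 and 6 and 2.78 against replicate 4 alone. NGFR, a neurotrophin receptor of the same readout set, read 29.0, 28.6 and 24.1 at 20 nM and lay below 10 on all 3 untreated arrays, which makes it at least 2.71-fold higher (adjusted p = 1.4e-11). SLC43A2, an amino acid transporter of that set, was 0.54 ± 0.21 higher against all 3 controls (adjusted p = 0.0479), and -0.17 against replicate 4 alone. Its call was also lost without 20 nM replicate 2 or 3 (0.50 and 0.45) and without untreated replicate 5 or 6 (0.35 and 0.38).

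Of 31 tested exportins, importins and Ran cycle genes, 4 were higher (12.9%) and 6 lower (19.4%), where 18.3% and 18.8% of all genes tested were. There were 6 higher and 8 lower without untreated replicate 4, and 4 and 5 against replicate 4 alone. XPO5, the export receptor of microRNA precursors, read 240.4, 242 and 242 at 20 nM, against 434, 631 and 601 untreated, and fell by 1.18 ± 0.22 (adjusted p = 2.8e-04). NUTF2, which imports Ran-GDP into the nucleus, rose by 0.93 ± 0.15. Both changes held with every choice of control. KPNA4, an importin alpha, read 284, 290.3 and 331 at 20 nM, against 368 on replicate 4 and 1011 and 969.5 on replicates 5 and 6, so that its change of -1.24 ± 0.30 was -0.29 against replicate 4 and no longer called. Of 29 nuclear pore genes, 3 were higher and 7 lower, and NDC1, a membrane nucleoporin, rose by 1.03 ± 0.11 while the scaffold genes NUP35 and NUP85 changed by -0.89 ± 0.09 and -0.67 ± 0.09.

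**Figure D1:**
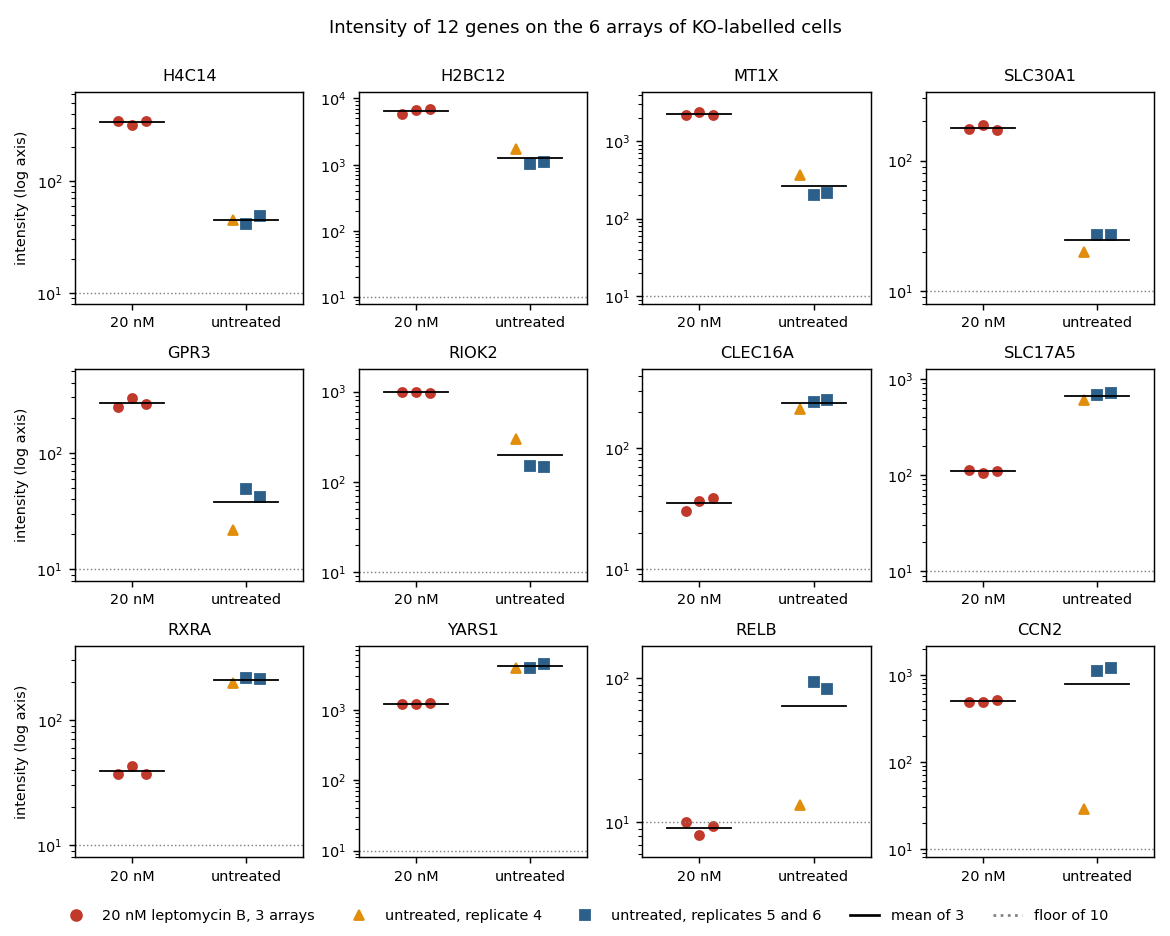
Intensity (log axis, arbitrary units) of 12 genes on the 3 arrays of KO-labelled cells at 20 nM leptomycin B, left, and on the 3 untreated arrays, right, with untreated replicate 4 as a triangle and the mean of each 3 as a bar. The untreated arrays lie close together for H4C14, CLEC16A, SLC17A5, RXRA and YARS1, while for RELB and CCN2 replicate 4 stands on the other side of, or beside, the 20 nM values.

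Metallothioneins, small zinc-binding proteins, and the zinc exporter SLC30A1 held several of the larger rises. These genes are induced by the zinc-sensing factor MTF1, which binds metal response elements. The RefSeq promoter windows (GRCh38.p14, 250 bases before to 50 after the start, 300 bases each) of 3 of them are shown because these genes moved together. Capitals mark the metal response element core, TGCACNC or TGCGCNC, on either strand, and matches may overlap. MT1X lies at chr16:56682220-56682519 on the plus strand, MT2A at chr16:56608334-56608633 on the plus strand and SLC30A1 at chr1:211579112-211579411 on the minus strand.
MT1X: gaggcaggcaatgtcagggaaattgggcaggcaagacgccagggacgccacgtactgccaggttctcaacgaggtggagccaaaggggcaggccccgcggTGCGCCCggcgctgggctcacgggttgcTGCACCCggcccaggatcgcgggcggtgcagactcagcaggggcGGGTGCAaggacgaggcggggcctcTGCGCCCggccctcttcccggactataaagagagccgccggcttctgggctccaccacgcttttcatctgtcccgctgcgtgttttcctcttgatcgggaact
MT2A: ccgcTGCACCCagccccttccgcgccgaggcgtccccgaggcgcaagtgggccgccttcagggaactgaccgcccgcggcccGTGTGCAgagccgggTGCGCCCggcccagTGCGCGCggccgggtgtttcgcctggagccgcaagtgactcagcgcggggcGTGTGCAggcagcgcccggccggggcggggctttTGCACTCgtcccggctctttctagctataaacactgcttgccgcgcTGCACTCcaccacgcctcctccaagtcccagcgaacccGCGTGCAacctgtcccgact
SLC30A1: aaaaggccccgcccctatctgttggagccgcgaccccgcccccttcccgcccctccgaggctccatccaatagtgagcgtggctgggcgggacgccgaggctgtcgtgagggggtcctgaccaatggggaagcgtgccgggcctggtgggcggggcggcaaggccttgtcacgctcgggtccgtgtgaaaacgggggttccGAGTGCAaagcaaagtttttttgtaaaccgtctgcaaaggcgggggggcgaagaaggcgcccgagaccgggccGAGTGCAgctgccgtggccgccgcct
The windows hold 4, 8 and 2 matches. Of all 35116 promoter windows, 29.6% hold at least 1 match, 8.6% at least 2, 0.601% at least 4 and 0.0199% at least 8. A match is a description of letters, not of binding.

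MT1X read 2168, 2398 and 2183 at 20 nM, against 368 on untreated replicate 4 and 201 and 212 on replicates 5 and 6. All treated values lay far above the untreated ones, and the rise of 3.17 ± 0.48 (adjusted p = 3.2e-05) held with every choice of control. MT2A, which buffers zinc and copper in most tissues, read 12193, 11426 and 11364 at 20 nM, against 6325, 4644 and 4509 untreated, a rise of 1.19 ± 0.18 (adjusted p = 2.6e-05). SLC30A1 read 173, 187 and 171 at 20 nM, against 19.9, 26.9 and 27.0 untreated, a rise of 2.86 ± 0.31 (adjusted p = 6.1e-07). The importer gene SLC39A10, which MTF1 is known to repress in mouse cells, went the other way, with 44.1, 44.5 and 43.2 at 20 nM, against 197, 176 and 194 untreated and a change of -2.10 ± 0.39 (adjusted p = 2.5e-04). Of its 2 promoter windows, 1 holds 1 match to the core.

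Of 11 tested genes of metallothioneins and zinc transport (15 listed), 8 were higher and 2 lower, with a median of 0.90, where the median of all genes tested was 0.00. Metallothionein probes may read several near-identical genes, so the 6 that rose may not be independent. The levels differed between control arrays of the 2 slide series. MT1X read 846, 905 and 899.5 at 2 nM in KO-labelled cells, against 1038, 1024, 969.9 and 246 on untreated replicates 7 to 10, so that 3 of 4 controls there lay above the treated arrays. SLC30A1 read 334, 287 and 315 at 2 nM, against 44.6, 50.2, 45.8 and 22.0 on the same controls, and did not overlap.

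Replication-dependent histone genes, which supply histones in S phase, held the most genes called in one direction of any list. Their transcripts normally end in a stem-loop rather than a poly(A) tail, and the labelling kit primes from poly(A), so the arrays read the polyadenylated share. Of 68 listed genes, 63 were on the array and 47 tested, and 33 of these were higher and 1 lower, with a median of 0.80. With every choice of control, 32 were higher. All 5 histone families held rises, with 11 of 13 H2A, 8 of 12 H2B, 8 of 11 H3, 5 of 8 H4 and 1 of 3 linker H1 genes. Among the 10 genes whose higher arm averaged at least 100, 9 rose and 1 fell.

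H4C14 read 346, 315 and 347 at 20 nM, against 44.5, 41.0 and 48.3 untreated, and rose by 2.91 ± 0.08 (adjusted p = 4.5e-15). H2BC12, an H2B gene, read 5851, 6639 and 6955 at 20 nM, against 1698, 1031 and 1116 untreated, and rose by 2.37 ± 0.14 (adjusted p = 3.8e-10). For H2AC18 the controls were wider apart, with 609, 589.5 and 680.1 at 20 nM, against 61.4 on replicate 4 and 173 and 198 on replicates 5 and 6, and the rise of 2.29 ± 0.34 was 1.75 against replicates 5 and 6 and 3.35 against replicate 4 alone. The 1 gene that fell, H4C3, named after its value was seen, averaged 16468 at 20 nM, against 20208 untreated, and fell by 0.30. It was also called lower against replicates 5 and 6, but not against replicate 4 alone. Probes of histone genes may cross-read within a family.

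An octamer, the binding element of OCT1, lies in the promoter windows of the H2B genes H2BC12 and H2BC21. They are shown for that reason with ATGCAAAT, on either strand, in capitals. Apart from H2BC11, the windows of the other H2B genes were not looked at singly. H2BC12 lies at chr6:27146809-27147108 and H2BC21 at chr1:149886633-149886932, both on the minus strand.
H2BC12: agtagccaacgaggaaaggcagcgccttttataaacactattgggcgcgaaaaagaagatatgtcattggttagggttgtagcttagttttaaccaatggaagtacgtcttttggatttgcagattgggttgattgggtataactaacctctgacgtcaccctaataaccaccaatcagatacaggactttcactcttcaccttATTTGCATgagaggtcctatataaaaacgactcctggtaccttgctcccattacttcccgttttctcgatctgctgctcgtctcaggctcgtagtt
H2BC21: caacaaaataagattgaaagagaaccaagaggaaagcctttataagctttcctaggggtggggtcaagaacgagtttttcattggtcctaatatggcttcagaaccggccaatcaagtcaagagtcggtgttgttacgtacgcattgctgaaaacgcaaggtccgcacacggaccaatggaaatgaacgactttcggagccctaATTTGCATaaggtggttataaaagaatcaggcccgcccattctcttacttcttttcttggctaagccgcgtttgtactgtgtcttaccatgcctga
The H2BC11 and H2AC17 windows hold 1 match each as well, that of H4C14 holds none, and 1.77% of all windows hold at least 1. H2BC21 read 82.2, 79.0 and 78.8 at 20 nM, against 10.9, 25.9 and 21.4 untreated, a rise of 2.13 ± 0.22, and H2AC17 rose by 2.14 ± 0.22.

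Replacement variants are polyadenylated and also made outside S phase. Of 8 tested, 4 were higher and none lower, and 1, H2AJ, with every choice of control. H2AJ read 341, 312 and 309 at 20 nM, against 158, 145 and 156 untreated, a rise of 1.06 ± 0.06 (adjusted p = 1.6e-10). H1-10, a linker variant, rose by 0.79 ± 0.19.

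**Figure D2:**
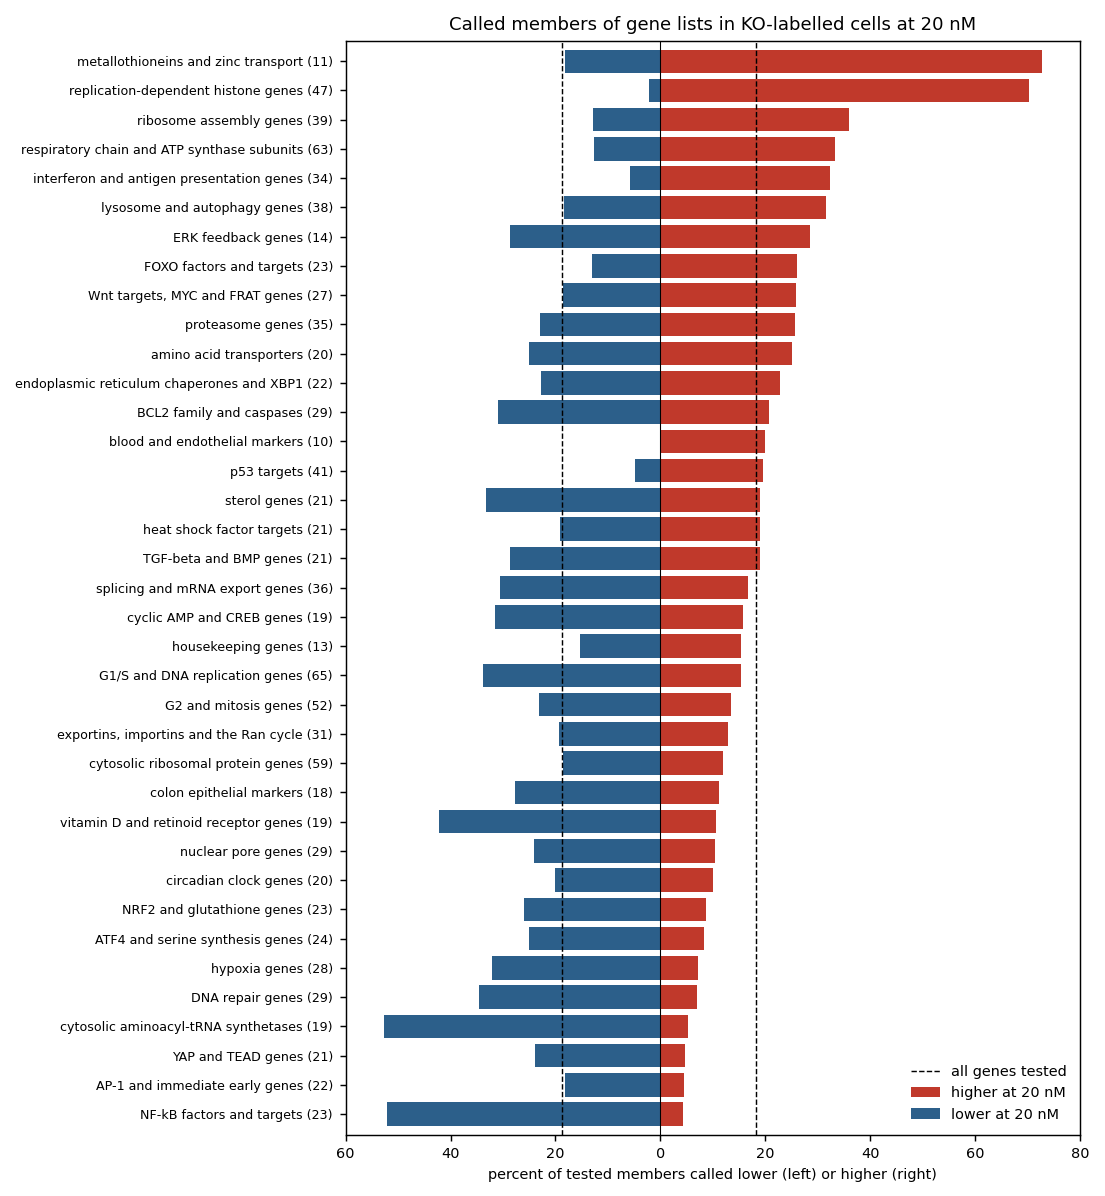
Percent of the tested members of each gene list (number tested in brackets) that were called higher (right) or lower (left) in KO-labelled cells at 20 nM, for lists with at least 10 tested members. Dashed lines give the 18.3% higher and 18.8% lower among all 12962 genes tested, which the histone and metallothionein lists exceed to the right and the tRNA synthetase and NF-kB lists to the left.

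Cyclic AMP signalling acts through protein kinase A and the factor CREB. Where 18.3% of all genes tested were higher and 18.8% lower, 3 (15.8%) and 6 (31.6%) of 19 cyclic AMP genes were. They were 3 higher and 9 lower without untreated replicate 4, and 6 and 4 against replicate 4 alone, with medians of -0.27 and 0.06. GPR3, a receptor that raises cyclic AMP without a ligand, read 245, 292 and 261 at 20 nM, against 21.8 on replicate 4 and 48.8 and 41.8 on replicates 5 and 6, and rose by 2.91 ± 0.25 (adjusted p = 4.2e-08). SIK1, a kinase that CREB induces and that curbs CREB's coactivators, read 265, 273 and 229.7 at 20 nM, against 21.1, 62.7 and 54.4 untreated, and rose by 2.62 ± 0.30 (adjusted p = 1.3e-06), by 2.13 against replicates 5 and 6 and by 3.60 against replicate 4 alone. PDE4B, which degrades cyclic AMP, fell by 1.45 ± 0.23, and ADCY3, which makes it, fell by 1.18 ± 0.11. These 4 changes held with every choice of control.

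The GPR3 promoter window, at chr1:27392372-27392671 on the plus strand, is shown because it holds 1 full cyclic AMP response element, TGACGTCA, in capitals, as do 1.85% of all windows.
GPR3: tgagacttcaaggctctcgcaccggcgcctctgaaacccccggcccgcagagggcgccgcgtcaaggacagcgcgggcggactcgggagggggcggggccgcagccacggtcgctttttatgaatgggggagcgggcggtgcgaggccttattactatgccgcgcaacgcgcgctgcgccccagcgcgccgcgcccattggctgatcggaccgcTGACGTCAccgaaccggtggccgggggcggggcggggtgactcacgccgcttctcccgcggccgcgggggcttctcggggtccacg
The letters are not in the SIK1 window. The H2BC12 window printed above holds them too, unmarked, since each window shown was marked only for the motif named with it.

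The other large rises were of genes with unrelated functions. HCST, a signalling adaptor of immune receptors, read 240.2, 235 and 259 at 20 nM, against 33.8, 29.3 and 29.4 untreated. ATP5MK, a small ATP synthase subunit, read 596, 587 and 602, against 75.5, 74.9 and 82.7 untreated, and its rise of 2.94 ± 0.14 was the largest of the 63 respiratory chain and ATP synthase genes tested, where the next largest was 0.79, of ATP5MC3. UBFD1, a ubiquitin-domain protein, read 756, 774 and 752, against 118, 127 and 137 untreated, and rose by 2.58 ± 0.06 (adjusted p = 2.5e-15). GTF3C4, a subunit of the RNA polymerase III factor TFIIIC, read 117, 129.7 and 94.8, against 13.9, 19.9 and 21 untreated, and OSBPL7, an oxysterol-binding protein, 243, 267 and 256, against 55.9, 35.8 and 34.4 untreated.

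Some rises were much smaller against replicate 4. SOX18, an endothelial transcription factor, read 321, 322 and 369 at 20 nM, against 154 on replicate 4 and 33.4 and 36.9 on replicates 5 and 6, so that its rise of 2.55 ± 0.43 was 3.26 against replicates 5 and 6 and 1.13 against replicate 4. F8A1, a huntingtin-associated protein gene, was 3.16 and 1.34 by the same measures. The 15 largest rises were taken only among genes whose 20 nM and untreated values did not overlap and whose brighter arm averaged at least 100. All 15 still held with every choice of control, which that selection favoured.

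The 15 largest falls, taken among genes selected in the same way, came from unrelated functions too. All held with every choice of control, which the selection by values that do not overlap favoured. Falls such as that of CXCL8, whose values overlap, were left out by it. NEK6, a mitotic kinase, read 19.5, 15.8 and 18.6 at 20 nM, against 86.4, 259 and 250.1 untreated, and fell by 3.31 ± 0.36 (adjusted p = 7.1e-07). LRSAM1, a ubiquitin ligase, read 60.3, 58.5 and 57.9 at 20 nM, against 256, 306 and 289.9 untreated, and fell by 2.27 ± 0.08 (adjusted p = 1.8e-13). ADORA2B, an adenosine receptor coupled to cyclic AMP, read 202, 213 and 220.0, against 947, 1140.1 and 1236 untreated, and fell by 2.38 ± 0.23. ERRFI1, a feedback inhibitor of the EGF receptor, read 1619, 1533 and 1399, against 5226, 8516 and 7609 untreated, and fell by 2.20 ± 0.16 (adjusted p = 4.6e-09). CHST15, a chondroitin sulfotransferase, fell by 2.32 ± 0.13.

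Genes of nuclear receptors for vitamin D and retinoids leaned lower. Of those tested 10.5% were higher and 42.1% lower, against 18.3% and 18.8% of all genes tested. Of 19 tested, 2 were higher and 8 lower, and 1 and 4 with every choice of control, with 1 higher and 7 lower without untreated replicate 4, and 2 and 5 against replicate 4 alone. RXRA, the shared partner of these receptors, read 36.7, 42.9 and 36.8 at 20 nM, against 198, 218 and 211 untreated, and fell by 2.43 ± 0.11 (adjusted p = 1.0e-11). CYP24A1, which degrades active vitamin D, read 135, 141 and 128, against 518, 328 and 321 untreated, and fell by 1.49 ± 0.17 (adjusted p = 1.8e-06). PPARG, a fatty acid receptor that pairs with RXRA, read 190.4, 168 and 164, against 720.1 on replicate 4 and 364 and 361 on replicates 5 and 6, and fell by 1.39 ± 0.29.

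Aminoacyl-tRNA synthetases, which load tRNAs for protein synthesis, leaned lower. Of the tested cytosolic enzymes 5.26% were higher and 52.6% lower, against 18.3% and 18.8% of all genes tested. Of 19 tested cytosolic enzymes, 10 were lower and 1 was higher, with a median of -0.20, and 8 were lower with every choice of control. There were 4 higher and 9 lower without untreated replicate 4, and 0 and 9 against replicate 4 alone. YARS1 read 1195, 1222 and 1236 at 20 nM, against 3968, 3890.0 and 4552 untreated, and fell by 1.76 ± 0.13 (adjusted p = 5.0e-09). AARS1 read 943, 1009 and 1068, against 4949 on replicate 4 and 2526 and 2547 on replicates 5 and 6, and fell by 1.66 ± 0.16 (adjusted p = 2.2e-07). GARS1 and SARS1 changed by -0.92 ± 0.15 and -0.92 ± 0.18, whereas NARS1 was at -0.15 ± 0.13 (adjusted p = 0.431).

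Amino acid transporters, of which several share the factor ATF4 with these enzymes, split 5 higher and 5 lower of 20, with 6 higher and 8 lower without untreated replicate 4, and 3 and 3 against replicate 4 alone. SLC38A2, a neutral amino acid transporter, read 739, 682 and 747 at 20 nM, against 2059 on replicate 4 and 4819 and 4465 on replicates 5 and 6, and fell by 2.29 ± 0.31 (adjusted p = 8.9e-06). SLC7A1, the cationic transporter, read 371, 315 and 336, against 1073, 1383 and 1479 untreated, and fell by 1.94 ± 0.24. ATF4 itself, a translation-controlled stress factor, read 6641, 7178 and 7049.9, against 10991, 16658 and 16607 untreated, and fell by 1.06 ± 0.17 (adjusted p = 5.3e-05), whereas the mean of all its probes was at 0.17 and not called. Its relative ATF5 rose, with 1989.8, 2009 and 2074 at 20 nM, against 615 on replicate 4 and 212 and 246 on replicates 5 and 6, by 2.67 ± 0.43 (adjusted p = 7.2e-05).

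Of 24 tested ATF4 and serine synthesis genes, 2 were higher and 6 lower, against 3 and 9 without replicate 4, and 1 and 1 against replicate 4 alone. STC2, a secreted ATF4 target, read 196, 202 and 197 at 20 nM, against 189.7 on replicate 4 and 1290.4 and 1288 on replicates 5 and 6. Its change of -1.78 ± 0.62 was -2.70 against replicates 5 and 6, and its difference against replicate 4 was 0.07. Its call was lost when any 1 of the other 5 arrays was left out, at -1.79 to -1.32. In the endoplasmic reticulum list, 5 of 22 were higher and 5 lower. ERN1, the stress sensor IRE1, read 270.5, 293 and 274, against 80.6, 62.6 and 61.9 untreated, and rose by 2.04 ± 0.09 (adjusted p = 8.3e-12), and the chaperone gene HSPA5 fell by 1.76 ± 0.16, both with every choice of control.

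Over all genes tested, 18.3% were higher and 18.8% lower. Ribosome assembly, whose subunits leave the nucleus through XPO1, held 14 genes higher (35.9%) and 5 lower (12.8%) of 39 tested. The median of these genes was 0.15. There were 11 higher and 10 lower without untreated replicate 4, and 9 and 1 against replicate 4 alone. With every choice of control, 6 were higher and 1 lower. RIOK2, a kinase that leaves the nucleus with the small subunit, read 996, 999 and 966 at 20 nM, against 298, 150.4 and 146 untreated, and rose by 2.40 ± 0.36 (adjusted p = 2.8e-05). WDR74, a large subunit factor, read 1626, 1636 and 1786, against 598, 745 and 692 untreated, and rose by 1.32 ± 0.21 (adjusted p = 5.6e-05). RRP12, a small subunit export factor, read 179, 186 and 176, against 241 on replicate 4 and 601 and 573 on replicates 5 and 6, and its change of -1.27 ± 0.29 was not called against replicate 4 alone. Of 59 ribosomal protein genes tested, 7 were higher and 11 lower, at a median of -0.03.

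Where 18.3% of all genes tested were higher and 18.8% lower, 21 (33.3%) and 8 (12.7%) of 63 respiratory chain and ATP synthase genes were. Their median was 0.10, and 9 and 5 were called with every choice of control. There were 25 higher and 9 lower without untreated replicate 4, and 10 and 8 against replicate 4 alone. Of 34 interferon and antigen presentation genes tested, 11 were higher and 2 lower, and 8 were higher with every choice of control. HLA-E, a class I antigen-presenting molecule, read 662, 662 and 686 at 20 nM, against 200.3, 268 and 281 untreated, and rose by 1.44 ± 0.10 (adjusted p = 2.0e-09). HLA-C rose by 1.24 ± 0.17 and the interferon regulatory factor gene IRF7 by 1.15 ± 0.20. UBE2L6, a conjugating enzyme for ISG15, read 526, 512 and 518, against 429 on replicate 4 and 109.8 and 104 on replicates 5 and 6. It was called against all 3 controls but not against replicate 4.

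Lysosome and autophagy genes held 12 rises (31.6%) and 7 falls (18.4%) among 38, where 18.3% of all genes tested rose and 18.8% fell. With every choice of control there were 8 and 4, and without untreated replicate 4 there were 10 higher and 9 lower. The median was 0.14 without replicate 4 and 0.27 against replicate 4 alone. CTSL, a lysosomal protease, read 2089, 2086 and 2212 at 20 nM, against 619, 609 and 672 untreated, and rose by 1.75 ± 0.11 (adjusted p = 9.1e-10). SLC17A5, which exports sialic acid from lysosomes, read 112, 106 and 111, against 604, 678 and 708 untreated, and fell by 2.59 ± 0.08 (adjusted p = 5.5e-14). BAMBI, a decoy receptor of TGF-beta, read 1356, 1323 and 1411, against 229.8, 274 and 325 untreated, and rose by 2.32 ± 0.11 (adjusted p = 2.3e-11), while ID3, a BMP target, read 274, 254 and 277, against 877, 956 and 954 untreated, and fell by 1.79 ± 0.21. NFE2L2, which encodes the oxidative stress factor NRF2, read 311, 294 and 320.1, against 636, 894 and 902 untreated, and fell by 1.38 ± 0.11 (adjusted p = 1.4e-08), and GCLC, its target in glutathione synthesis, fell by 1.19 ± 0.15. Of 23 tested NRF2 and glutathione genes, 2 were higher and 6 lower.

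Of 29 cell death genes of the BCL2 family and caspases, 6 were higher (20.7%) and 9 lower (31.0%). Over all genes tested, 18.3% were higher and 18.8% lower. Without untreated replicate 4, 6 of the 29 were higher and 9 lower. Their median was -0.07 without replicate 4 and 0.03 against replicate 4 alone. BCL2L11, the FOXO-induced death factor BIM, read 25.6, 25.1 and 21.7 at 20 nM, against 4.21, 9.73 and 10.6 untreated, and rose by 1.24 ± 0.08. BIRC5, which encodes survivin, read 149, 139 and 139, against 67.5, 43.6 and 50.2 untreated, and rose by 1.43 ± 0.21 (adjusted p = 2.9e-05). FOXO1, an XPO1 cargo, fell by 1.32 ± 0.17, and CITED2, a FOXO target, rose by 1.44 ± 0.28, and these 4 changes held with every choice of control. Of 23 FOXO factors and targets, 6 were higher and 3 lower, with 6 higher and 6 lower without untreated replicate 4, and 6 and 1 against replicate 4 alone, at medians of 0.00 and 0.49. The rise of CITED2 was 1.00 against replicates 5 and 6 and 2.32 against replicate 4 alone.

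**Figure D3:**
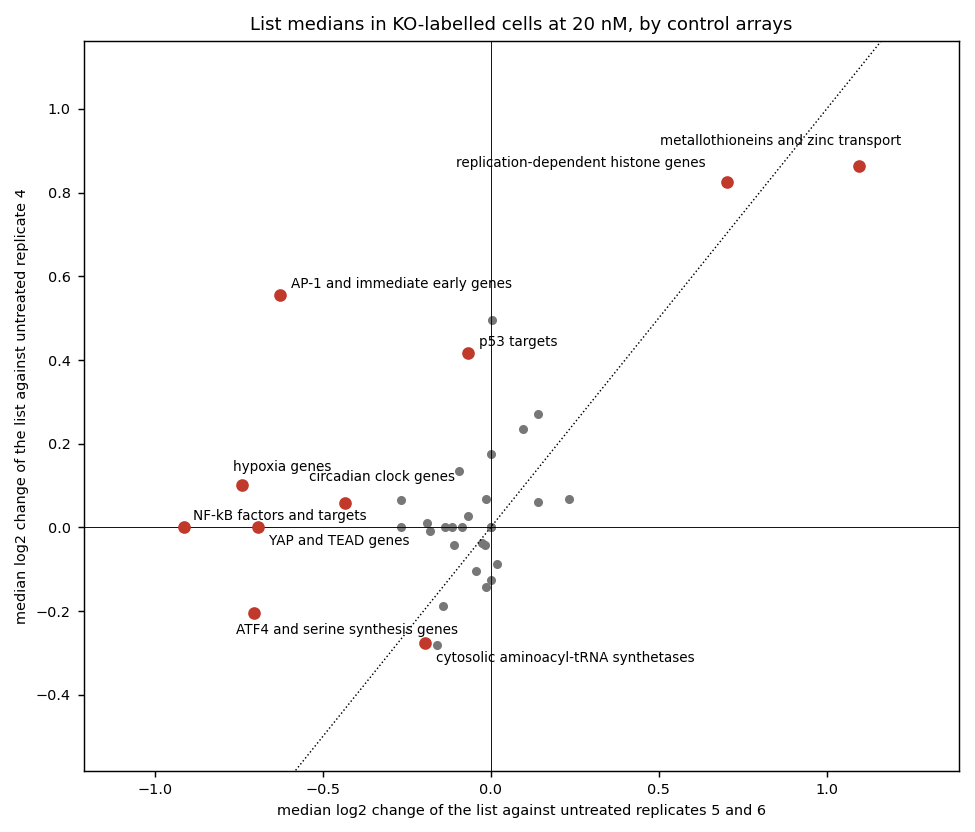
Median log2 change of each list with at least 10 tested members at 20 nM, against untreated replicates 5 and 6 (horizontal) and against untreated replicate 4 alone (vertical), where a point on the dotted line has the same median both ways. NF-kB, hypoxia, YAP and immediate early genes lie far from the line, at -0.91, -0.74, -0.69 and -0.63 on the horizontal axis and 0.00, 0.10, 0.00 and 0.55 on the vertical one.

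For several stress and signal lists the outcome turned on the control arrays. Of 23 tested NF-kB factors and targets, genes of inflammatory signalling, 1 was higher and 12 lower, against 1 and 17 without replicate 4 and 2 and 1 against replicate 4 alone, with the shares over all genes given above. RELB, an NF-kB subunit, read 10.0, 8.17 and 9.35 at 20 nM, against 13.2 on replicate 4 and 93.1 and 84.0 on replicates 5 and 6. The chemokine gene CXCL8 read 14.6, 15.3 and 14.3, against 13.2 on replicate 4 and 216 and 186 on replicates 5 and 6. Both read on replicate 4 much as they did at 20 nM, and their changes of -2.23 ± 0.49 and -2.46 ± 0.79 became -0.40 and 0.16 against it. CXCL8 was not called without untreated replicate 5 (-1.75) or 6 (-1.86) either. No NF-kB gene was called with every choice of control.

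Hypoxia genes, targets of HIF1A, were 2 higher and 9 lower of 28, and 2 higher and 1 lower against replicate 4 alone. PFKFB4, a glycolytic regulator, was the 1 that fell with every choice of control. It read 58.3, 65.5 and 74.4 at 20 nM, against 198, 264 and 320.2 untreated, and fell by 1.96 ± 0.28. HK2, a hexokinase, read 199.5, 211 and 179, against 189 on replicate 4 and 597 and 565 on replicates 5 and 6. HK2 fell by 1.03 ± 0.39 against all 3 controls (adjusted p = 0.0432), and was not called when any 1 of the other 5 arrays was left out, at -1.08 to -0.74. Of 22 AP-1 and immediate early genes, 1 was higher and 4 lower, 1 and 9 against replicates 5 and 6, and 9 and 2 against replicate 4. JUND, an AP-1 subunit, read 2239, 2305 and 2033, against 6491, 6106 and 5353 untreated, and fell by 1.45 ± 0.25, and IER5, which is also on the p53 target list, rose by 1.00 ± 0.19. Both held with every choice of control.

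CCN2, a YAP target, read 491, 484 and 517 at 20 nM, between 29.0 on untreated replicate 4 and 1106 and 1203 on replicates 5 and 6. Its difference was 0.56 ± 1.03 against all 3 (adjusted p = 0.839) and 4.10 against replicate 4. Against replicates 5 and 6 it was -1.21 (adjusted p = 0.203). Without untreated replicates 4 and 10 of both labels, the same -1.21 had an adjusted p of 9.8e-09, from a smaller pooled spread. The NF-kB inhibitor gene NFKBIA followed the same order, with 2882, 3184 and 3293 at 20 nM, against 1198 on replicate 4 and 6292 and 6895 on replicates 5 and 6. It was called lower against replicates 5 and 6, at -1.08 (adjusted p = 0.00601), and higher against replicate 4, at 1.38 (adjusted p = 0.0114). FJX1, another YAP target, rose with every choice of control, with 334, 315 and 311, against 108, 82.9 and 83.6 untreated, by 1.82 ± 0.21.

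In the p53 target list, 8 of 41 tested genes (19.5%) were higher and 2 lower in KO-labelled cells, against 18.3% higher and 18.8% lower over all genes, at a median of 0.00, and 4 rose with every choice of control. PLK2, a kinase, read 63.5, 59.8 and 56.6 at 20 nM, against 16.3, 22.6 and 24.7 untreated, and rose by 1.52 ± 0.22 (adjusted p = 2.1e-05), and RPS27L, a ribosomal protein relative, rose by 0.93 ± 0.13 (adjusted p = 8.8e-06). CDKN1A was at -0.51 ± 0.37 (adjusted p = 0.325), -0.98 against replicates 5 and 6 (adjusted p = 0.0287) and 0.42 against replicate 4. MDM2, the ubiquitin ligase that degrades p53, was dim, with 12, 7.45 and 9.87 at 20 nM, against 7.26, 17.1 and 20.3 untreated, and its -0.51 ± 0.31 was not called (adjusted p = 0.217), though it was against replicates 5 and 6, at -0.81 (adjusted p = 0.0451).

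Cell cycle genes had calls in both directions. Over all genes tested 18.3% were higher and 18.8% lower, and among G2 and mitosis genes 13.5% and 23.1%. Of 52 tested G2 and mitosis genes, 7 were higher and 12 lower, with a median of -0.01, and 5 and 7 with every choice of control. BUB3, a spindle checkpoint protein, read 4544, 4659 and 5049 at 20 nM, against 8938, 9891 and 9162 untreated, and fell by 0.97 ± 0.05 (adjusted p = 1.2e-10). CCNF, cyclin F, read 54.9, 55.9 and 53.8, against 142, 168 and 166 untreated, and fell by 1.53 ± 0.13 (adjusted p = 2.0e-08). KIF20A, a cytokinesis kinesin, rose, with 1229, 1386 and 1298, against 794, 745 and 695 untreated, by 0.81 ± 0.13 (adjusted p = 8.4e-05).

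Of 65 G1/S and DNA replication genes, 10 were higher (15.4%) and 22 lower (33.8%), with a median of -0.10. CCNE1, cyclin E1, which drives entry into S phase, read 597, 601 and 571 at 20 nM, against 96.4, 179 and 167 untreated, and rose by 2.05 ± 0.28 (adjusted p = 8.8e-06). CDT1, a replication licensing factor, read 782, 807 and 797, against 1682 on replicate 4 and 2867 and 3058 on replicates 5 and 6, and fell by 1.62 ± 0.26 (adjusted p = 5.9e-05). CHAF1A, a subunit of the complex that puts histones on new DNA, fell by 1.58 ± 0.15. Of 29 DNA repair genes, 2 were higher and 10 lower. The helicase gene BLM read 74.0, 73.3 and 80.2, against 143, 219 and 195 untreated, and fell by 1.27 ± 0.18 (adjusted p = 1.5e-05). BRCA1, a repair factor of double-strand breaks, fell by 1.20 ± 0.16. The changes of CCNE1, CDT1, CHAF1A, BLM and BRCA1 held with every choice of control.

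The difference from WT-labelled cells at the same dose was tested directly, as the KO-labelled response minus the WT-labelled one (12 arrays, no array shared between the 2 responses). In WT-labelled cells 2729 genes (21.1%) were higher and 2875 (22.2%) lower. Of the calls in KO-labelled cells, 3537 had the same sign there, which is 73.4% of the KO-labelled calls and 63.1% of the WT-labelled ones, and 72 had the opposite sign. Across the 12962 genes, which are not independent replicates, and with an untreated replicate 4 in both responses, the changes had r = 0.79 (Spearman's rho 0.74). The difference was called for 1147 genes (8.85%), 638 with a higher (4.92%) and 509 with a lower value in KO-labelled cells (3.93%).

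**Figure D4:**
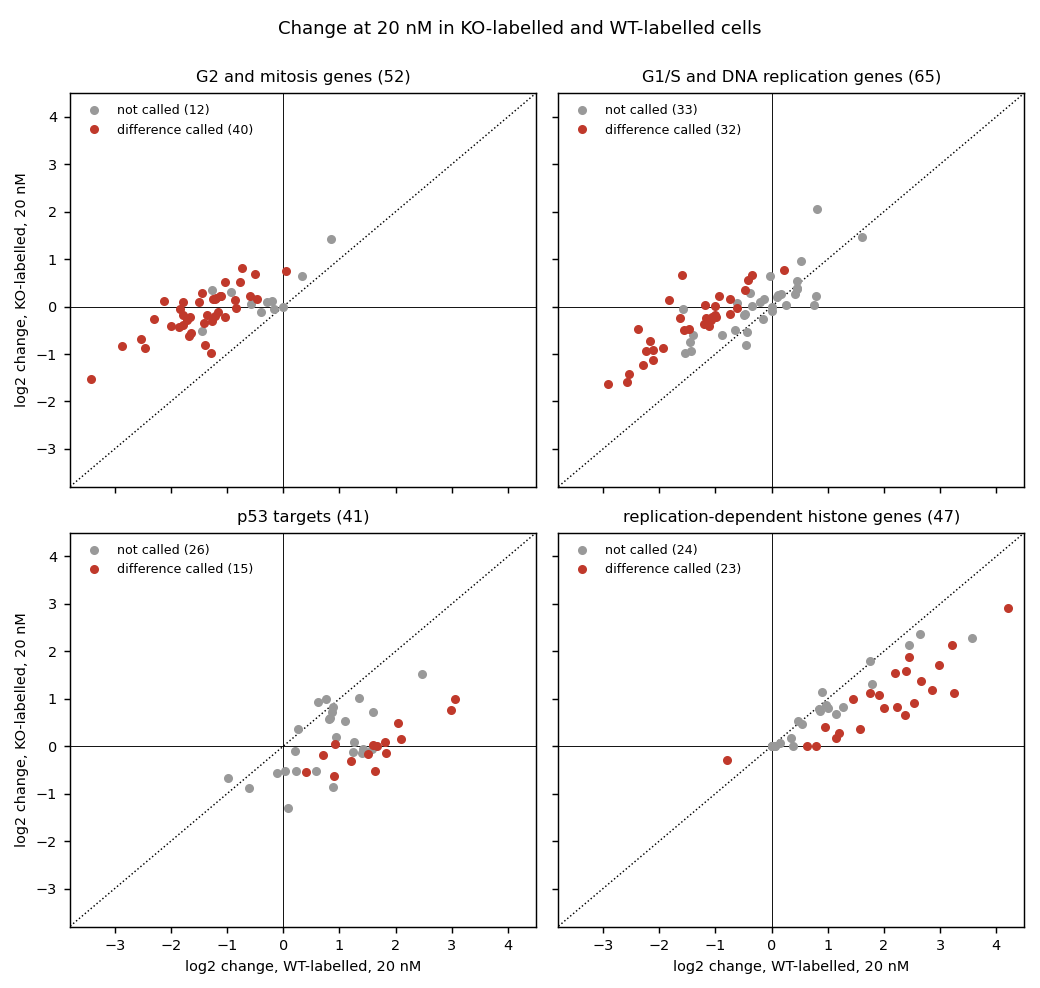
Log2 change at 20 nM in KO-labelled cells (vertical) against that in WT-labelled cells (horizontal) for the tested members of 4 lists, with red for genes whose difference between the responses was called and a dotted line for equal change. Most G2 and mitosis genes lie above the line and left of 0, with 40 of 52 differences called, and the p53 targets and histone genes lie mostly below it.

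G2 and mitosis genes held the largest share of called differences among the lists with 10 or more tested members. In WT-labelled cells 45 of 52 were lower and 2 higher, with a median of -1.23, and 40 had a called difference, all with the higher value in KO-labelled cells. Leaving out replicate 4 of both labels gave 43, when 10.9% of all genes were higher and 10.4% lower in KO-labelled cells. Replicate 4 of each label alone gave 41, when 4.27% were higher and 4.12% lower. BUB1B, a spindle checkpoint kinase, read 276, 293 and 282 at 20 nM and 503, 532 and 487 untreated in KO-labelled cells, and 52.2, 62.2 and 58.8 at 20 nM and 541, 363 and 379 untreated in WT-labelled cells. It fell by 0.84 ± 0.14 in KO-labelled cells and fell by 2.87 ± 0.14 in WT-labelled cells, a difference of 2.03 ± 0.20 (adjusted p = 1.6e-06).

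SPC25, a kinetochore subunit, read 168, 143 and 151 at 20 nM and 182, 124 and 127 untreated in KO-labelled cells, and 41.9, 59.2 and 44.2 at 20 nM and 200, 217 and 210.2 untreated in WT-labelled cells. Its levels overlapped in KO-labelled cells and not in WT-labelled ones, a difference of 2.24 ± 0.19 (adjusted p = 2.8e-07). The mitotic kinesin gene KIF20A was called in opposite directions, at 0.81 ± 0.13 in KO-labelled and -0.73 ± 0.13 in WT-labelled cells, a difference of 1.54 ± 0.19 (adjusted p = 2.0e-05). CCNF, which fell in both, differed by 1.90 ± 0.18.

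Of the 65 G1/S and replication genes, 42 were lower and 5 higher in WT-labelled cells, and 32 had a called difference, all with the higher value in KO-labelled cells. The differences called were 42 higher and 2 lower without replicate 4 of both labels, and 24 and 1 with it as the only control. CCNE2, cyclin E2, read 486, 434 and 444 at 20 nM and 189.7, 369 and 337 untreated in KO-labelled cells, and 162, 143 and 161 at 20 nM and 166, 792 and 786 untreated in WT-labelled cells, a difference of 2.26 ± 0.54 (adjusted p = 0.0116). Without replicate 4 of both labels it was 2.71, and with replicate 4 as the only control 1.36. CDT1, CHAF1A, BLM and BRCA1 fell in both, and the falls in KO-labelled cells were smaller, with differences of 1.29, 1.00, 0.98 and 1.25. With replicate 4 of each label as the only control, those of CHAF1A, BLM and BRCA1 were not called, at 0.89, 1.01 and 1.00. The difference of CDT1 was not called when any 1 of 7 arrays was left out, at 1.03 to 1.30, and that of BLM not without untreated WT-labelled replicate 6, at 0.89. Of the 29 repair genes, 18 were lower and 2 higher in WT-labelled cells, and 9 had a called difference, again all higher in KO-labelled cells, with 15 higher and 1 lower without replicate 4 of both labels, and 4 and 1 with it as the only control.

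The p53 targets ran the opposite way, with 28 of 41 higher and 1 lower in WT-labelled cells, a median there of 0.93, and 15 called differences, all lower in KO-labelled cells. The differences called were 3 higher and 20 lower without replicate 4 of both labels, and 0 and 31 with it as the only control. SESN1, a p53-induced stress protein, read 33.7, 42.8 and 34.6 at 20 nM and 21, 23.2 and 21.3 untreated in KO-labelled cells, and 1013, 979 and 979 at 20 nM and 62.6, 171 and 182 untreated in WT-labelled cells. Its change was 0.75 ± 0.29 in KO-labelled cells (adjusted p = 0.0503) and 2.99 ± 0.29 in WT-labelled cells, a difference of -2.23 ± 0.41 (adjusted p = 0.00152), -1.76 without replicate 4 of both labels and -3.18 with replicate 4 as the only control. MDM2 was 1.63 ± 0.31 in WT-labelled cells, a difference of -2.14 ± 0.43 (adjusted p = 0.00321), and SERPINB5, the serpin maspin, rose in both, by 1.00 ± 0.25 in KO-labelled (not called against replicate 4 alone) and 3.06 ± 0.25 in WT-labelled cells (difference adjusted p = 8.2e-04).

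Histone genes rose in both labels, 33 of 47 in KO-labelled and 38 in WT-labelled cells, and 22 differences were called with the lower value in KO-labelled cells and 1 with the higher, with 1 higher and 22 lower without replicate 4 of both labels, and 0 and 16 with it as the only control. H4C14 rose by 2.91 ± 0.08 in KO-labelled and by 4.21 ± 0.08 in WT-labelled cells, a difference of -1.30 ± 0.11 (adjusted p = 4.0e-07). H3C13 read 60.3, 50.2 and 65.2 at 20 nM and 21.5, 25.8 and 35.2 untreated in KO-labelled cells, and 185, 172 and 166 at 20 nM and 19, 18.3 and 17.5 untreated in WT-labelled cells, a difference of -2.14 ± 0.22 (adjusted p = 1.9e-06). The metallothionein and zinc list held no called difference with all controls, and 1 higher and 1 lower without replicate 4 of both labels, with MT1X at 2.90 ± 0.48 and SLC30A1 at 3.48 ± 0.31 in WT-labelled cells.

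Other genes differed in directions of their own. IRX3, a homeobox factor, read 105, 115 and 114 at 20 nM and 55.2, 37.3 and 39.5 untreated in KO-labelled cells, and 50, 46.7 and 45.9 at 20 nM and 62.3, 116 and 119 untreated in WT-labelled cells. It rose by 1.36 ± 0.25 in KO-labelled cells and fell by 1.00 ± 0.25 in WT-labelled cells, a difference of 2.37 ± 0.35 (adjusted p = 1.6e-04), 2.85 without replicate 4 of both labels and 1.41, no longer called, with replicate 4 as the only control. FRAT2, a Wnt pathway activator, rose by 1.36 ± 0.32 in KO-labelled cells and fell by 0.87 ± 0.32 in WT-labelled cells. RGS2, a brake on G protein signalling, read 68.6, 62.9 and 67.4 at 20 nM and 21, 24.5 and 26.1 untreated in KO-labelled cells. In WT-labelled cells it read 201, 227 and 194 at 20 nM and 616, 205 and 244 untreated. Every untreated KO-labelled array of this slide series thus lay below every WT-labelled one. In the other slide series the labels ran the opposite way, with 221 to 689 on untreated KO-labelled arrays and 19.8 to 22.8 on untreated WT-labelled ones. At 20 nM RGS2 rose by 1.48 ± 0.36 in KO-labelled cells and its responses differed by 2.08 ± 0.51 (adjusted p = 0.0135). That difference was 1.5 without replicate 4 of both labels and 3.23 with replicate 4 as the only control.

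MC1R, the melanocortin receptor, read 25.6, 31.7 and 35.1 at 20 nM and 73.8, 144 and 162 untreated in KO-labelled cells, and 109.7, 96.9 and 103 at 20 nM and 105, 97.8 and 100.0 untreated in WT-labelled cells. It fell by 1.97 ± 0.23 in KO-labelled cells and was 0.03 ± 0.23 in WT-labelled cells, a difference of -2.01 ± 0.32 (adjusted p = 3.5e-04), -2.39 without replicate 4 of both labels and -1.26 with replicate 4 as the only control. INPP1, an inositol phosphatase, fell by 0.78 ± 0.14 in KO-labelled and rose by 0.88 ± 0.14 in WT-labelled cells. RHBDF2, an inactive rhomboid that controls a growth factor sheddase, fell by 2.51 ± 0.08 in KO-labelled cells and fell by 1.45 ± 0.08 in WT-labelled cells, a difference of -1.06 ± 0.11 (adjusted p = 2.0e-06).

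At 2 nM the same genes were read on other slides. In KO-labelled cells at 2 nM, 2806 genes (21.6%) were higher and 2825 (21.8%) lower, and in WT-labelled cells at 2 nM 2251 (17.4%) and 2480 (19.1%). Of the KO-labelled calls at 20 nM, 2926 had the same sign in KO-labelled cells at 2 nM (60.8% of the 20 nM calls and 52.0% of the 2 nM ones) and 235 the opposite sign. With WT-labelled cells at 2 nM, 2945 had the same sign (61.2% and 62.2%) and 40 the opposite. Of the 52 G2 and mitosis genes, 48 were lower and 0 higher in KO-labelled cells at 2 nM, and 18 and 8 in WT-labelled cells at 2 nM. Of the 41 p53 targets, 40 were higher in KO-labelled cells at 2 nM and 11 in WT-labelled cells at 2 nM.

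**Figure D5:**
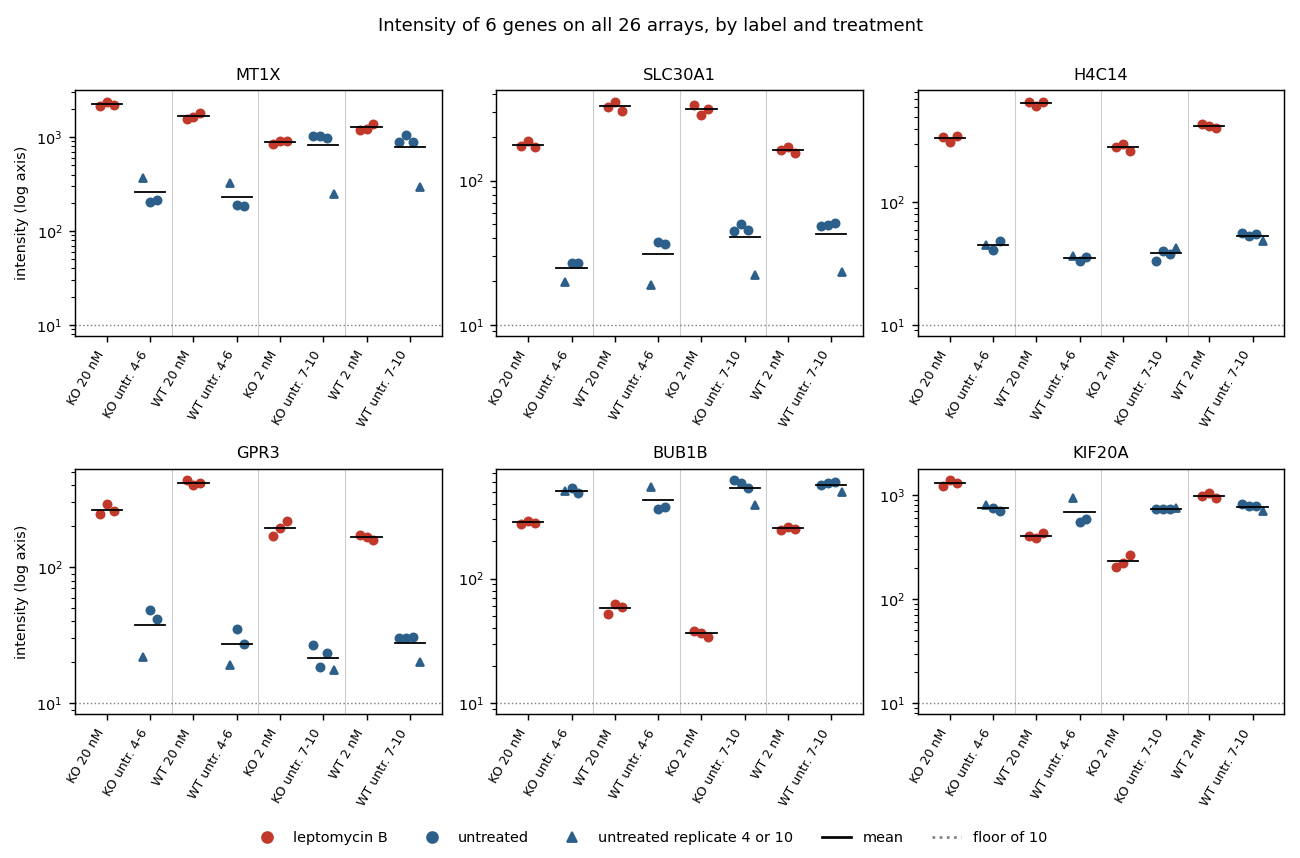
Intensity (log axis, arbitrary units) of 6 genes on all 26 arrays, in pairs of treated (red) and untreated (blue) groups, with untreated replicates 4 and 10 as triangles and bars for means. H4C14, SLC30A1 and GPR3 lie above their controls in all 4 pairs, whereas BUB1B and KIF20A lie lowest in 2 groups, WT-labelled at 20 nM and KO-labelled at 2 nM.

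A core of genes was called in the same direction in all 4 responses, 1058 higher (8.16%) and 1142 lower (8.81%). Replication-dependent histone genes were among them, and H4C14 changed by 2.89 in KO-labelled and 2.99 in WT-labelled cells at 2 nM. GPR3 rose by 3.19 ± 0.24 and 2.60 ± 0.24 there, SIK1 by 3.33 ± 0.28 and 3.17 ± 0.28, and UBFD1 by 2.65 ± 0.06 and 2.47 ± 0.06. CLEC16A, a regulator of mitophagy, read 30.3, 36.4 and 38.7 in KO-labelled cells at 20 nM, against 211, 244 and 254 untreated, and 47.0, 48.1 and 48.4 at 2 nM, against 198, 180.4, 190.1 and 181 untreated. EXOC6, a subunit of the exocyst that tethers vesicles, read 18.5, 18.2 and 19.8 at 20 nM, against 92.5, 97.4 and 86.0 untreated, and fell by 2.29 ± 0.12 at 20 nM, and its changes at 2 nM were -2.81 ± 0.11 in KO-labelled and -2.18 ± 0.11 in WT-labelled cells. IGF2BP3, an mRNA-binding protein of fetal tissue and tumours, fell by 2.03 ± 0.30 at 20 nM, and its changes at 2 nM were -2.95 ± 0.28 in KO-labelled and -2.32 ± 0.28 in WT-labelled cells.

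The remaining lists had calls in both directions, where 18.3% of all genes tested were higher and 18.8% lower. GAPDH, a glycolytic enzyme used for normalization, read 11399, 11434 and 9927 at 20 nM, against 10026, 12114 and 12124 untreated (adjusted p = 0.728), and of 13 housekeeping genes tested 2 were higher and 2 lower. POLR2A, the large subunit of RNA polymerase II and 1 of the 2 that were higher, read 15517, 16557 and 16237, against 8448, 7455 and 7369 untreated, and rose by 1.06 ± 0.06 (adjusted p = 2.1e-10) with every choice of control. Proteasome genes were 9 higher and 8 lower of 35, heat shock factor targets 4 and 4 of 21, sterol genes 4 and 7 of 21, splicing and mRNA export genes 6 and 11 of 36, TGF-beta and BMP genes 4 and 6 of 21, Wnt targets 7 and 5 of 27, ERK feedback genes 4 and 4 of 14, YAP and TEAD genes 1 and 5 of 21, circadian clock genes 2 and 4 of 20 and colon epithelial markers 2 and 5 of 18. The medians of the YAP and TEAD and the circadian clock lists turned on the control arrays. They were -0.69 and -0.43 against untreated replicates 5 and 6, and 0.00 and 0.06 against replicate 4 alone.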

How the data were processed

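RNA of cultured HCT116 cells was read on 26 one-colour Illumina bead arrays, extracted with Trizol and labelled with the Illumina TotalPrep kit and Cy3, per the labels' protocols. The deposited values are linear intensities made with BeadStudio, as the submitters' processing notes say. Its version, and how background and normalization were handled, are not given in the sources used. Every array had a median of 10.2, 20.4% of all values were below 0 and 49.7% at or below 10, and no detection p-values were used. Depth has no counterpart on arrays, and precision rests on the number of arrays.

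Gene names came from the platform annotation, updated through Entrez identifiers (21101 of 22177 probes had 1 symbol, none had several and 1076 had none). The probe with the highest mean stood for its gene (2345 tested genes had several), and genes above the array's 40th percentile on at least 3 arrays were kept, 12962 in all. Values under 10 were set to 10 and log2 values of the deposited intensities taken. A model with a mean for each of the 8 groups was fitted to all 26 arrays with limma 3.58.1 (R 4.3.3; 18 residual degrees of freedom, statmod 1.5.0 for random blocks), with Benjamini-Hochberg adjustment over all genes. Simulated data had independent noise on each array, and changes were given only to genes with a mean level above 50. There, 76% of genes changed by 1 log2 unit and 98% of those changed by 2 were recovered in the 20 nM comparison of KO-labelled cells. Of 12762 unchanged genes, 8 were called. The simulation held no dim changed genes, no shared deviation of untreated replicate 4 and no slide effects, so its rates do not cover these. Group, replicate and dose came from the titles.

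The genes named were CDKN1A, MDM2 and XPO1; the 15 largest called rises and 15 falls with arms that do not overlap and a brighter arm of at least 100; up to 5 called and 2 uncalled members of each list; the 10 largest differences between labels each way; up to 6 genes called in opposite directions; and up to 8 called alike in all 4 responses, of which a part is described. The part described, its gene lists and the tests were chosen with earlier results of these data known. Same-numbered KO-labelled and WT-labelled arrays of the first slide series had deviations from their group means that correlated at 0.045 to 0.102 at 20 nM and 0.687 to 0.761 untreated. The labels state no pairing, so the main fit did not use the numbers in spite of the untreated values. Fits with the number as a block are given below. No values of the deleted gene are reported.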

Additional observations from a re-analysis of the deposited data

Results flagged for a closer look

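The responses of KO-labelled and WT-labelled cells to 20 nM were set against each other in the same fit, and 1147 genes differed between them by that test. Of these, 263 were not called in KO-labelled cells and lower in WT-labelled cells, and 231 were not called in KO-labelled cells and higher in WT-labelled cells. A further 214 were lower in both, 181 of them with the larger fall in WT-labelled cells. Higher in both were 154, 116 of them with the larger rise in WT-labelled cells. Another 207 were called in KO-labelled cells and not in WT-labelled cells, and 72 were called in opposite directions. Each gene below was singled out because that test of the difference passed the threshold, and each value is the KO-labelled change minus the WT-labelled one, on the log2 scale, from limma.

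Among cell cycle and repair genes the difference was 2.03 for BUB1B, 0.31 for BUB3, 2.24 for SPC25, 1.90 for CCNF and 1.54 for KIF20A. It was 2.26 for CCNE2, 1.29 for CDT1, 1.00 for CHAF1A, 0.98 for BLM and 1.25 for BRCA1. Among histone genes it was -1.30 for H4C14, -2.14 for H3C13, -1.07 for H2AC17, 0.94 for H1-10 and 0.50 for H4C3.

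Among p53 targets it was -2.14 for MDM2, -2.23 for SESN1 and -2.06 for SERPINB5. For XPO1 readouts and pore genes it was -1.08 for NGFR (a fitted value, with untreated arrays at the floor), 0.59 for NDC1, 0.50 for NUP35 and 0.56 for NUP85. Among metabolic and transport genes it was 1.00 for AARS1, 1.09 for SLC7A1, -0.46 for SLC17A5 and 1.70 for CYP24A1.

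For the others it was 2.37 for IRX3, 2.23 for FRAT2, 2.08 for RGS2, 1.19 for PDE4B, -2.01 for MC1R, -1.65 for INPP1 and -1.06 for RHBDF2. It was -0.73 for UBFD1, 0.40 for POLR2A, 0.46 for HLA-E and 1.4 for HBA1. The differences of BLM, CDT1, H1-10, H2AC17, HLA-E, NDC1, NUP35, PDE4B, SLC17A5 and SLC7A1 lost their call without at least 1 single array.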

How the results depend on the processing

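The alternatives moved counts more than directions. In KO-labelled cells at 20 nM the count of called genes, 4816, was 3154 with only the 6 arrays fitted (1576 higher, 1578 lower) and 7596 with array weights (3826 higher, 3770 lower). Leaving out 1 array gave 4156 to 5557 (2003 to 2728 higher, 2135 to 2829 lower), the highest without untreated replicate 4. The count of differences between labels, 1147, was 750 with the 12 arrays of the first slide series (320 lower), 746 with slide as a random block (311 lower), 4999 with array weights (2555 higher, 2444 lower), 2760 without untreated replicate 4 of both labels (1417 higher, 1343 lower) and 4354 without replicates 4 and 10 of both labels (2278 higher, 2076 lower). Leaving out 1 array gave 823 to 2594 differences (481 to 1280 higher, 342 to 1314 lower), the most without untreated KO-labelled replicate 4. With the replicate number as a block, a pairing the labels do not state, there were 2356 differences (1229 higher, 1127 lower) as a random block and 2868 (1514 higher, 1354 lower) as a fixed block, and 4939 called genes in KO-labelled cells at 20 nM as a random block. Every 20 nM and untreated array of the first slide series but 20 nM replicate 1 correlated best with its own number, as a hint from the data. The cause of these shifts was not tested.

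Of the named genes' changes in KO-labelled cells, 16 values changed sign, and NFKBIA and CCN2 were called in opposite directions by different alternatives. With untreated replicate 4 as the only control, an alternative chosen after seeing the data, these were CDKN1A at 0.42, CXCL8 at 0.16, GAPDH at 0.12, HK2 at 0.053, MDM2 at 0.086, NFKBIA at 1.38, SLC43A2 at -0.17, SPC25 at -0.25 and STC2 at 0.066. CCN2 was at -1.2 with array weights and at -1.21 without untreated replicates 4 and 10. Leaving out 1 array gave CCN2 at -1.21 (without untreated replicate 4) to 1.47, GAPDH at -0.15 to 0.0051 and NFKBIA at -1.08 to 0.18. ATF4 was at 0.17 with the mean of all its probes. Of the other values of named genes, 2146 kept direction and side of the threshold, 50 lost and 28 gained a call, and of the differences between labels 897 kept both and 102 lost the call. Leaving out replicate 4 of both labels and replicate 4 of each label alone were also chosen after seeing the data. Signal over background limits dim genes, since 49.7% of values lay at or below the floor.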
